A study of Mus musculus with 12 samples.

Results

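The 10 genes described here encode alpha tubulins (Tuba1a, Tuba1b, Tuba3a, Tuba3b and Tuba8) and beta tubulins (Tubb2a, Tubb3, Tubb4b, Tubb5 and Tubb6) of the mouse. They were found by their NCBI gene identifiers among the 22221 rows of the deposited table, and all 10 were present. All 10 also passed the filter on low values, at least 1 FPKM in at least 3 libraries, which 15472 rows passed. FPKM is the authors' unit, a read abundance corrected for transcript length and for library total, so levels can be set side by side between genes.

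The study sequenced testis RNA of outbred ICR mice as 12 libraries, 3 in each of 4 groups. The IMA10 group was given busulfan once, when the mice were 3 weeks old, and then, for 2 weeks, gut microbiota from donor mice that had been given Aligina Oligosaccharide (the label's spelling) at 10 mg/kg. The IMC group also received busulfan once at 3 weeks of age and then, for 2 weeks, gut microbiota from donors given ddH2O. The Sa group received busulfan once at 3 weeks of age and then saline, and the Con group had no treatment. Testes of the IMA10 and IMC groups were collected 3 weeks after the microbiota treatment. The Sa and Con groups had no microbiota treatment, and no collection time is given here for them. The 3 busulfan groups share this drug, an alkylating agent toxic to germ cells that divide. Neither the age of Con mice nor whether each library came from its own animal is stated, so the p-values rest on a spread between libraries that may be technical. The design text calls the testis cultured but names no culture step. Con libraries are named with a prefix that the busulfan libraries lack, so a difference in batch and the Con group cannot be told apart.

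Microtubules are hollow polymers of paired alpha and beta tubulin, and mammals carry several genes for each. The isotypes are alike over most of their length and differ mostly in the acidic tail at the end of the chain, where glutamate and glycine chains are added and where most alpha tubulins carry a tyrosine that enzymes remove and restore. In the testis, microtubules form the meiotic spindles of spermatocytes, the manchette that shapes the spermatid head, the axoneme of the sperm tail and the scaffold of the tall Sertoli cell. Tuba3a and Tuba3b are known as alpha isotypes of the mouse testis, and Tubb4b as a beta isotype of cilia and flagella. Tubb3 is best known as a neuronal beta tubulin and is also made by Sertoli cells, and Tubb5 is the common beta isotype of dividing cells.

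The ends of 6 coding sequences are shown because the tails set the isotypes apart. Each line gives the last 60 coding bases before the stop codon, 5′ to 3′, with the last codon in capitals. They were read from the longest open reading frame of 1 transcript per gene in GENCODE release M21.
Tuba3a: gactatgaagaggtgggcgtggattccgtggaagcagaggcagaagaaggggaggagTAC
Tuba3b: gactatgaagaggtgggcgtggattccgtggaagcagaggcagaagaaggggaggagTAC
Tuba8: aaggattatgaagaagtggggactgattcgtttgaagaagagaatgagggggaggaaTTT
Tubb3: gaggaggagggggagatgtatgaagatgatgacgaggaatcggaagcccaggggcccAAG
Tubb4b: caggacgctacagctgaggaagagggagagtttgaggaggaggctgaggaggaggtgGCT
Tubb5: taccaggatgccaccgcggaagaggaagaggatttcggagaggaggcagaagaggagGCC
The ends of Tuba3a and Tuba3b close on TAC, a codon for tyrosine, and that of Tuba8 closes on TTT, which codes for phenylalanine. Tubb3 closes on AAG, a lysine codon, while Tubb4b and Tubb5 close on GCT and GCC, which both code for alanine. Tuba3a and Tuba3b share 97% of their coding bases, with 41 of 1350 different, and their last 60 bases were identical. Tuba1a and Tuba1b share 98.3%, with 23 of 1353 different.

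Such likeness bears on the counts, because a short fragment can match more than 1 gene and the counting step is not given in the sources used here. Of all 50-base stretches of the transcript, 52% in Tuba1a and 64.6% in Tuba1b also occur in another tubulin transcript, mostly that of Tuba1c. The share is 32.4% in Tuba3a and 27.4% in Tuba3b, each with the other, and 45.6% in Tubb2a, with Tubb2b. It is 0.181% in Tuba8, 0.0385% in Tubb5 and 0 in Tubb3, Tubb4b and Tubb6. Values of the Tuba1 genes, of Tuba3a and Tuba3b, and of Tubb2a are therefore uncertain as single genes, and sums over each alpha subfamily are given as well.

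Some libraries stood apart. IMA10 replicate 3 correlated across genes of log2 values with the Con libraries at 0.92 to 0.93, but with the other IMA10 libraries at 0.61 and 0.71. Values without it are given beside the results that it moves most. The sum of FPKM was between 476127 and 519355 in the busulfan libraries and between 569055 and 576093 in the Con libraries, and read depth is unknown because the table holds no counts. Defining markers of testis cells were above 0 in every group for the lists of 15 Sertoli, 10 spermatocyte, 9 round spermatid and 12 elongating spermatid genes.

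In untreated testis, 3 isotypes dominated. Tuba3a had 1214, 1243 and 1244 FPKM in Con, Tubb4b had 1198, 1169 and 1171 FPKM, and Tuba3b had 877, 958 and 820 FPKM. Tuba8 followed at 212 ± 7.71 FPKM (mean ± SD, n = 3), and then 2 alpha tubulins outside the 10, Tuba4a at 95.3 ± 4.65 and Tuba1c at 71.1 ± 5.56 FPKM. Tuba1a stood at 54.2 ± 3.99, Tuba1b at 43 ± 1.86, Tubb6 at 16.6 ± 1.43, Tubb3 at 14.8 ± 1.11, Tubb2a at 7.31 ± 0.24 and Tubb5 at 2.76 ± 4.57 FPKM. In that order the Con values of neighbours did not overlap, except those of Tubb6 and Tubb3 and those of Tubb2a and Tubb5. Tubal3, Tubb1, Tubb2b and Tubb4a had a mean under 1 FPKM in every group.

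The order was another one in the busulfan groups. In Sa the highest means were those of Tubb4b at 487 ± 121, Tuba1a at 479 ± 73.3 and Tuba3a at 468 ± 199 FPKM, whose values overlapped. In IMC they were Tuba1a at 517 ± 35.5, Tuba3a at 385 ± 152 and Tubb4b at 375 ± 101 FPKM. There Tuba3a overlapped both others, but every Tuba1a value was above every Tubb4b value. In IMA10 they were Tuba3a at 560 ± 810, Tuba1a at 508 ± 308 and Tubb4b at 494 ± 521 FPKM. The SDs of Tuba3a and Tubb4b exceeded their means, and that of Tuba1a was large too, because replicate 3 differed from the other 2 libraries.

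**Figure D1:**
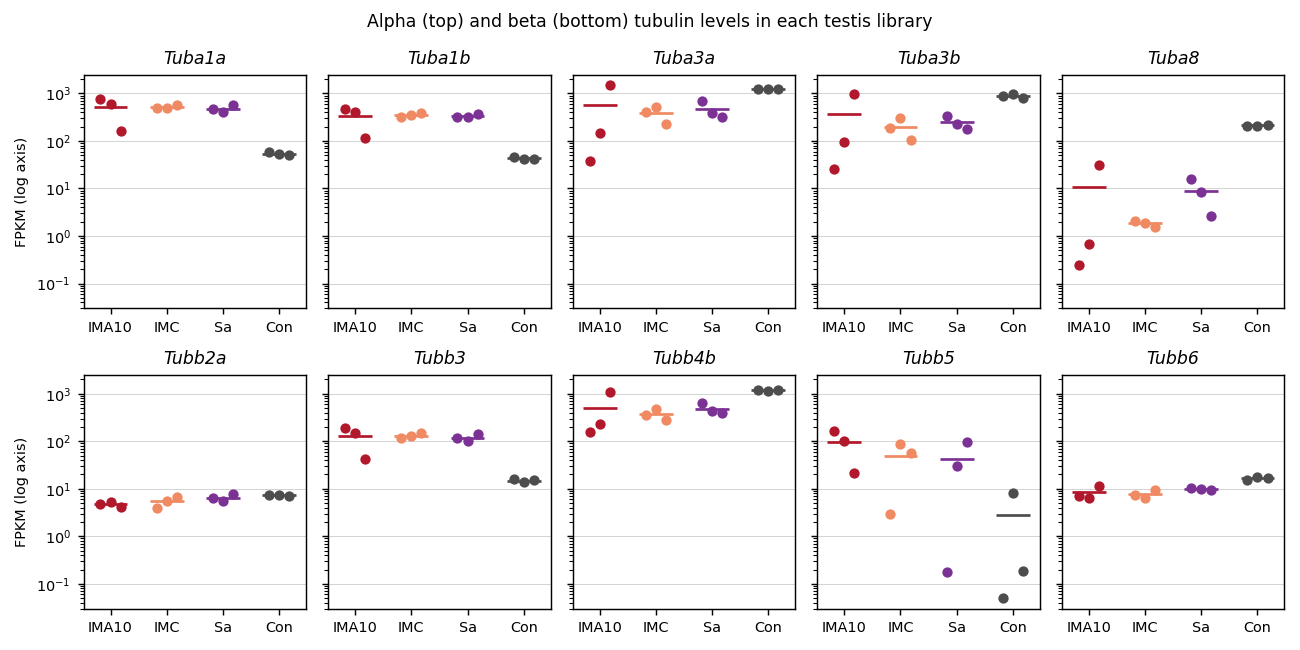
FPKM (log axis) of the 10 tubulin genes in the 12 libraries, with alpha tubulins in the top row and beta tubulins in the bottom row. Points are libraries in replicate order from left to right and lines are group means. Tuba1a, Tuba1b and Tubb3 lie higher in all 9 busulfan libraries than in Con, Tuba8 lies lower in all 9, and Tubb5 spreads widely within groups.

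The comparison of each busulfan group with Con asks which isotypes differ in the testis after the drug. Tuba1a, the alpha isotype known from the growing brain, had 757, 602 and 164 FPKM in IMA10, 495, 498 and 558 FPKM in IMC, and 461, 417 and 560 FPKM in Sa (replicates 1 to 3), against 58.5, 53.4 and 50.7 FPKM in Con. Every busulfan library was above every Con library, and IMA10 replicate 3 was the lowest of the 9. On the log2(FPKM + 1) scale it was higher than in Con by 2.94 ± 0.46 in IMA10, 3.23 ± 0.46 in IMC and 3.11 ± 0.46 in Sa (SE, limma adjusted p = 0.000948, 0.000308 and 0.000367). Without IMA10 replicate 3 the IMA10 difference was 3.62 ± 0.15, and those of Tuba1b and Tubb3, described next, were 3.32 ± 0.11 and 3.41 ± 0.16.

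Tuba1b, a broadly expressed alpha isotype, had 471, 407 and 115 FPKM in IMA10, 326, 357 and 380.0 FPKM in IMC, and 320.0, 323 and 369 FPKM in Sa, against 45.1, 42.2 and 41.6 FPKM in Con. Its libraries lay in the same way as those of Tuba1a, with no overlap between busulfan and Con. The log2 differences to Con were 2.68 ± 0.42 in IMA10, 3.01 ± 0.42 in IMC and 2.94 ± 0.42 in Sa (SE, limma adjusted p = 0.000955, 0.000308 and 0.000362). Tuba1c, a close relative of both, had smaller differences. It averaged 101 ± 59 FPKM in IMA10, 123 ± 28.8 in IMC and 114 ± 22.7 in Sa, against 71.1 ± 5.56 in Con, and passed in none of the 3 comparisons (limma adjusted p = 0.624, 0.146 and 0.207). With IMA10 replicate 3 left out it passed as higher in all 3.

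Tubb3 had 187, 149 and 42.4 FPKM in IMA10, 119, 129 and 148 FPKM in IMC, and 115, 101 and 141 FPKM in Sa, against 15.8, 13.6 and 15.0 FPKM in Con. All 9 busulfan libraries were above Con. It was higher by 2.76 ± 0.44 in IMA10, 3.07 ± 0.44 in IMC and 2.91 ± 0.44 in Sa (log2 ± SE, limma adjusted p = 0.000961, 0.000313 and 0.000395). Neuronal markers were at or near 0 in all groups. Over a list of 9 neuronal genes the summed level was 1.09 to 2.87 FPKM in IMA10, 1.86 to 2.62 in IMC and 2.16 to 3.06 in Sa, against 1.95 to 2.01 in Con, and 8 or 9 of the 9 genes were under 1 FPKM in all libraries of a group. Gap43 was listed at 0 in all 3 Sa libraries.

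The isotypes that lead in untreated testis had lower mean levels. Tuba8, a divergent alpha tubulin, had 0.25, 0.68 and 31.8 FPKM in IMA10, 2.07, 1.87 and 1.57 FPKM in IMC, and 15.7, 8.36 and 2.6 FPKM in Sa, against 211, 205 and 220.2 FPKM in Con. No busulfan library came near a Con library, and the values within IMA10 and within Sa were far apart. The log2 differences to Con were -5.70 ± 1.04 in IMA10, -6.23 ± 1.04 in IMC and -4.69 ± 1.04 in Sa (SE, limma adjusted p = 0.00125, 0.000483 and 0.00246). By the ratio of mean FPKM, Tuba8 was 19.4-fold lower in IMA10, 115-fold lower in IMC and 23.8-fold lower in Sa than in Con. The IMA10 mean was carried by replicate 3. Without it Tuba8 averaged 0.465 FPKM, 456-fold lower than in Con, and the log2 difference was -7.20 ± 0.49 (limma adjusted p = 3.35e-07).

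Tuba3a had 38.2, 149 and 1493 FPKM in IMA10, 401, 528 and 225 FPKM in IMC, and 694, 390.0 and 319.7 FPKM in Sa, against 1214, 1243 and 1244 FPKM in Con. The 6 IMC and Sa libraries and IMA10 replicates 1 and 2 were below Con, while IMA10 replicate 3 was above it. The log2 differences to Con were -2.58 ± 1.02 in IMA10 (limma adjusted p = 0.0422), -1.76 ± 1.02 in IMC (0.134) and -1.48 ± 1.02 in Sa (0.205), so only the IMA10 difference passed. When IMA10 replicate 3 was left out the errors shrank and all 3 passed, at -4.01 ± 0.54 in IMA10, -1.76 ± 0.49 in IMC and -1.48 ± 0.49 in Sa (limma adjusted p = 5.32e-05, 0.00628 and 0.016). The IMA10 call with all libraries held in 4 of 19 alternatives. It was lost without any single library other than IMA10 replicate 3 (limma adjusted p = 0.051 to 0.157), with the log2 difference at -1.38 ± 0.80 without IMA10 replicate 1. It was also lost with the replicate block (0.0652) and when only the 2 groups were fitted (0.125).

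Tuba3b had 25.8, 96.6 and 988 FPKM in IMA10, 192, 302 and 103 FPKM in IMC, and 334, 223 and 177 FPKM in Sa, against 877, 958 and 820 FPKM in Con. As with Tuba3a, only IMA10 replicate 3 among the busulfan libraries exceeded Con values. The log2 differences were -2.69 ± 1.02 in IMA10, -2.28 ± 1.02 in IMC and -1.90 ± 1.02 in Sa (limma adjusted p = 0.0363, 0.0633 and 0.114). Without IMA10 replicate 3 they were -4.11 ± 0.55, -2.28 ± 0.49 and -1.90 ± 0.49 (limma adjusted p = 4.67e-05, 0.0014 and 0.00442). The IMA10 call was lost in 8 of 19 alternatives. They were leaving out IMA10 replicate 1 (-1.51 ± 0.81) or 2 or any Con library (limma adjusted p = 0.0735 to 0.134), the replicate block (0.0576), quantile normalization (0.0635) and the fit of 2 groups (0.113).

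Tubb4b had 154, 235 and 1093 FPKM in IMA10, 365, 480.2 and 278 FPKM in IMC, and 623, 444 and 393 FPKM in Sa, against 1198, 1169 and 1171 FPKM in Con. All 9 busulfan libraries were below Con, IMA10 replicate 3 by little. The log2 differences were -1.79 ± 0.58 in IMA10, -1.69 ± 0.58 in IMC and -1.30 ± 0.58 in Sa (limma adjusted p = 0.0197, 0.0238 and 0.0657). The Sa difference did not pass, and without IMA10 replicate 3 it did, at -1.30 ± 0.23 (limma adjusted p = 0.000457), while the IMA10 difference was then -2.63 ± 0.26. The IMA10 call was lost without IMA10 replicate 1 (-1.22 ± 0.54, limma adjusted p = 0.0766) or 2 (0.0759), in the fit of 2 groups (0.0822) and with quantile normalization (0.0617). The IMC call was lost in 6 of 19 alternatives, without IMC replicate 1 or 3 or any Con library (limma adjusted p = 0.053 to 0.0786) and with quantile normalization (0.09).

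The 2 remaining beta isotypes of low level differed less. Tubb6, a minor beta isotype, averaged 8.36 ± 2.88 FPKM in IMA10, 7.76 ± 1.55 in IMC and 9.83 ± 0.467 in Sa, against 16.6 ± 1.43 in Con, with no overlap. It was lower by log2 differences of -0.95 ± 0.22, -1.02 ± 0.22 and -0.70 ± 0.22 (SE, limma adjusted p = 0.00391, 0.00216 and 0.0164), and the Sa call was lost without Sa replicate 3 (0.0518) or Con replicate 2 (0.0558). Tubb2a averaged 4.82 ± 0.586 FPKM in IMA10, 5.46 ± 1.42 in IMC and 6.51 ± 1.03 in Sa, against 7.31 ± 0.24 in Con. Only its IMA10 difference passed, at -0.52 ± 0.19 (limma adjusted p = 0.0344, and 0.0906 in IMC and 0.478 in Sa). That call was lost in 7 of 19 alternatives, among them the replicate block (0.057) and leaving out IMA10 replicate 1 or any Con library (limma adjusted p = 0.0673 to 0.0869). With median-of-ratios scaling Tubb2a passed as lower in IMC and Sa too, at -1.02 ± 0.19 and -0.86 ± 0.19 (limma adjusted p = 0.00118 and 0.00277).

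Counted together, 4 of the 10 genes rose and 6 fell in IMA10 against Con, while 47.7% of all genes tested rose and 23.9% fell. In IMC 3 rose and 3 fell, while 50.8% of all genes rose and 23.3% fell. In Sa 3 rose and 2 fell, while 52.0% of all genes rose and 19.2% fell, so in each comparison rises were fewer than that share and the falls in IMC and Sa were near it. Judged by libraries that do not overlap, 4 genes lay above and 4 below Con in IMA10 (49.3% and 18.1% of all genes), 3 above and 6 below in IMC (55.1% and 33.2%), and 3 above and 5 below in Sa (56.9% and 31.3%). The median log2 difference over the 10 genes was -0.73 in IMA10, -0.71 in IMC and -0.42 in Sa, against 0.41, 0.52 and 0.60 over all genes tested. Without IMA10 replicate 3 the counts were 4 and 6 in IMA10 (all genes 51.6% and 35.0%), 3 and 6 in IMC (53.7% and 32.2%), and 3 and 5 in Sa (55.7% and 30.0%). The 3 comparisons share the Con libraries and are not independent of each other.

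With median-of-ratios scaling the median log2 difference to Con over all genes was -0.07 in IMA10, -0.10 in IMC and -0.09 in Sa, against 0.41, 0.52 and 0.60 with FPKM as deposited. All genes then split into 5658 higher and 5912 lower in IMA10, 5941 and 6474 in IMC, and 5736 and 6246 in Sa, against 7383 and 3694, 7862 and 3603, and 8052 and 2963 with FPKM as deposited. Tuba1a, Tuba1b and Tubb3 passed as higher, and Tuba8 as lower, in all 3 comparisons under each of the 19 alternatives tried. None of the 10 genes changed direction against Con under any of them.

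**Figure D2:**
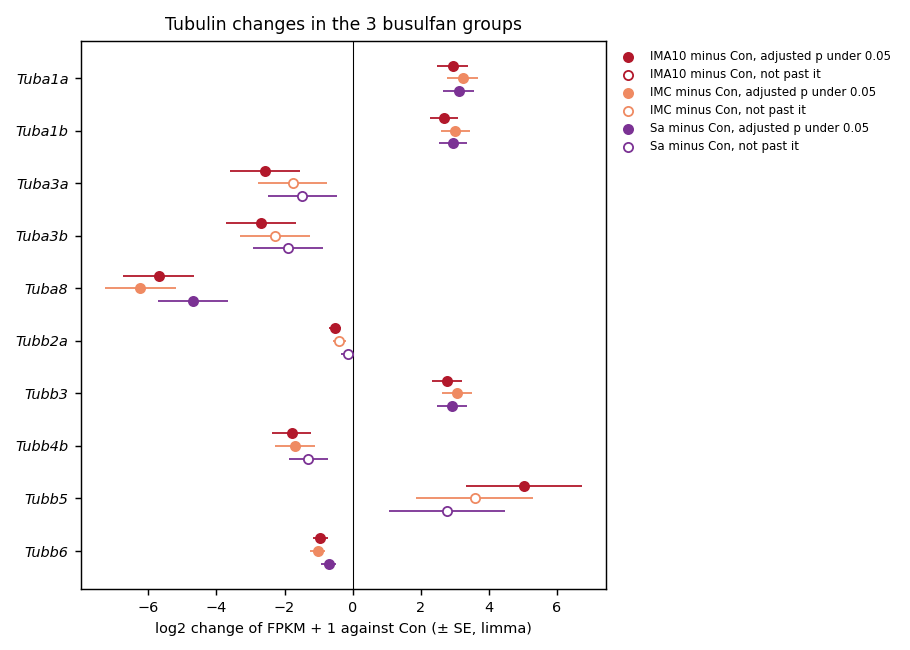
Log2 change of FPKM + 1 against Con (x axis, limma estimate ± SE) of the 10 tubulin genes in IMA10, IMC and Sa. Filled points passed an adjusted p of 0.05 over all genes tested and open points did not. Tuba1a, Tuba1b and Tubb3 lie near 3 in all groups and Tuba8 between -6.23 and -4.69.

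Shares within a library do not depend on how that library was scaled. The Tuba1a, Tuba1b and Tuba1c rows together made up 95.1, 81.8 and 11% of summed alpha tubulin FPKM in IMA10, 60.9, 53.2 and 76.5% in IMC, and 45.6, 57 and 67.8% in Sa, against 6.84, 6.04 and 6.59% in Con. The Tuba3a and Tuba3b rows together made up 4.43, 17.7 and 87.4% in IMA10, 38.6, 46.2 and 22.9% in IMC, and 52.9, 41.7 and 31.5% in Sa, against 81.2, 82.9 and 80.9% in Con. In all busulfan libraries except IMA10 replicate 3 the Tuba3 share was below Con. The Tuba1 share was above Con in all 9, in IMA10 replicate 3 by the least. IMA10 replicates 1 and 3 had the lowest and the highest Tuba3 share of the 12 libraries.

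Among beta tubulins, Tubb4b made up 29.6, 47.1 and 93.2% in IMA10, 73.2, 67.9 and 55.8% in IMC, and 82.5, 75.1 and 60.7% in Sa, against 96.9, 96.1 and 96.8% in Con. Tubb3 made up 36, 29.9 and 3.61% in IMA10, 23.8, 18.2 and 29.7% in IMC, and 15.2, 17.1 and 21.8% in Sa, against 1.28, 1.12 and 1.24% in Con. Neither share overlapped between the busulfan libraries and Con.

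For a test with enough arrangements, the 9 busulfan libraries were set against the 3 Con libraries, which allows 220 arrangements and an exact two-sided permutation p of 0.00909 at the least. The mean shares of Tuba1a (32% in busulfan, 2.09% in Con), Tuba1b (21.7% and 1.66%) and Tubb3 (21.7% and 1.21%) were higher, each at that smallest exact p (0.0182 adjusted over 12 shares). Those of Tuba8 (0.342% and 8.17%), Tuba4a (0.504% and 3.68%) and Tubb4b (65% and 96.6%) were lower at the same exact p. Tuba3a (24.4% and 47.6%) and Tuba3b (13.7% and 34.1%) were lower at an exact p of 0.0364 and 0.0273 (adjusted 0.0485 and 0.0468). Tubb5 (10.9% and 0.227%, exact p = 0.0455, adjusted 0.0545), Tubb2a (0.922% and 0.599%, exact p = 0.109) and Tubb6 (1.38% and 1.36%, exact p = 0.945) did not pass after adjustment. With IMA10 replicate 3 left out, the smallest exact p is 0.0121, which the shares of all tested isotypes but Tubb5 (exact p = 0.0606) and Tubb6 (exact p = 0.739) reached. Tubb2a and Tubb6 thus had lower mean FPKM in each busulfan group than in Con, while their mean shares over the 9 busulfan libraries were not lower. With 3 libraries against 3, single groups cannot go below an exact p of 0.1. The pooled test takes the 3 busulfan groups as 1 and does not show a difference in each. In IMA10 alone the Tuba3a and Tuba3b shares overlapped those of Con (exact permutation p = 0.4 and 0.3).

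The summed level was lower as well. Alpha tubulin rows summed to 1890 ± 823 FPKM in IMA10, 1587 ± 188 in IMC and 1663 ± 248 in Sa, against 2595 ± 55 in Con. Beta tubulin rows summed to 730 ± 384 FPKM in IMA10, 568 ± 120 in IMC and 664 ± 83.6 in Sa, against 1221 ± 13.9 in Con. Over the 9 busulfan and 3 Con libraries the exact permutation p was 0.0364 for alpha (IMA10 replicate 3, at 2839 FPKM, overlapped Con) and 0.00909 for beta, or 0.0364 and 0.0273 adjusted over 3 measures. Without IMA10 replicate 3 both exact p-values were 0.0121, the smallest possible.

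**Figure D3:**
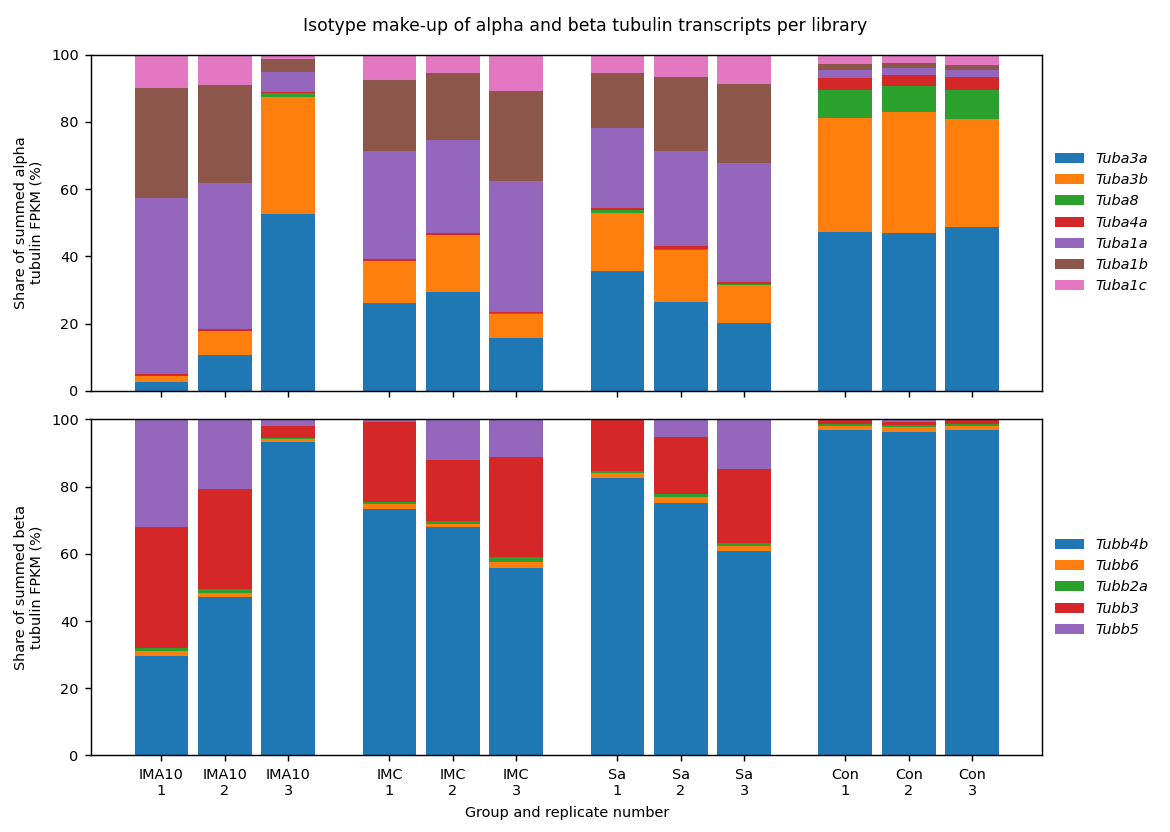
Share of each isotype in summed alpha (top) and beta (bottom) tubulin FPKM (y axis, percent) in each library (x axis). Tuba3a, Tuba3b and Tubb4b fill most of each Con bar. The Tuba1 genes and Tubb3 take a larger share in every busulfan library than in Con, least in IMA10 replicate 3.

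Summed levels of cell markers moved with the isotypes. In bulk tissue, fewer cells of a type and less RNA per cell cannot be told apart. The summed level of 10 spermatocyte genes was 174, 629 and 5735 FPKM in IMA10, 1410, 1704 and 722 in IMC, and 2371, 1600 and 1204 in Sa, against 6170, 6139 and 6052 in Con. Tuba3a was lowest, at 38.2 FPKM, in the library with the lowest sum, and it had 1493 FPKM in IMA10 replicate 3, whose sum was near that of Con. As single genes, 6 of the 10 spermatocyte genes passed as lower than Con in IMA10, 2 in IMC and 1 in Sa (23.9%, 23.3% and 19.2% of all genes). Without IMA10 replicate 3 the counts were 10, 7 and 7 (35.0%, 32.2% and 30.0% of all genes). The summed level of 12 elongating spermatid genes was 43, 93.5 and 4145 FPKM in IMA10, 356, 295 and 161 in IMC, and 2378, 1720 and 273 in Sa, against 47156, 44646 and 46928 in Con. All 12 passed as lower in each comparison with Con, beside the same shares of all genes. Tuba8 was likewise lowest in IMA10 replicate 1 and highest of the busulfan libraries in IMA10 replicate 3. IMA10 replicate 3 thus had Tuba3a above its Con values but Tuba8 at 31.8 FPKM, against 205 to 220.2 FPKM in Con, beside a spermatocyte sum near Con and an elongating spermatid sum far below it.

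Markers of somatic cells were higher along with the isotypes that rose, and so were many of spermatogonia in Sa. The 15 Sertoli genes summed to 17932, 14077 and 3009 FPKM in IMA10, 12530, 11824 and 14089 in IMC, and 9293, 9485 and 11545 in Sa, against 684, 632 and 583 in Con. Leydig markers, 8 genes, summed to 1899 to 7158 FPKM in IMA10, 4303 to 13723 in IMC and 4428 to 9032 in Sa, against 622 to 668 in Con. Of the markers tested in Sa against Con, 15 of 15 Sertoli, 8 of 8 Leydig, 5 of 5 myoid, 5 of 5 endothelial, 7 of 7 macrophage and 8 of 9 spermatogonial genes rose, where 52.0% of all genes did. Of the 9 spermatogonial genes 4 rose and 1 fell in IMA10, where 47.7% of all genes rose and 23.9% fell. In IMC 6 rose and 1 fell, where 50.8% rose and 23.3% fell. The median log2 difference of these genes was 0.32 in IMA10 and 0.85 in IMC, against 0.41 and 0.52 over all genes. The part of any of these cell types in the tubulin differences was not tested.

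**Figure D4:**
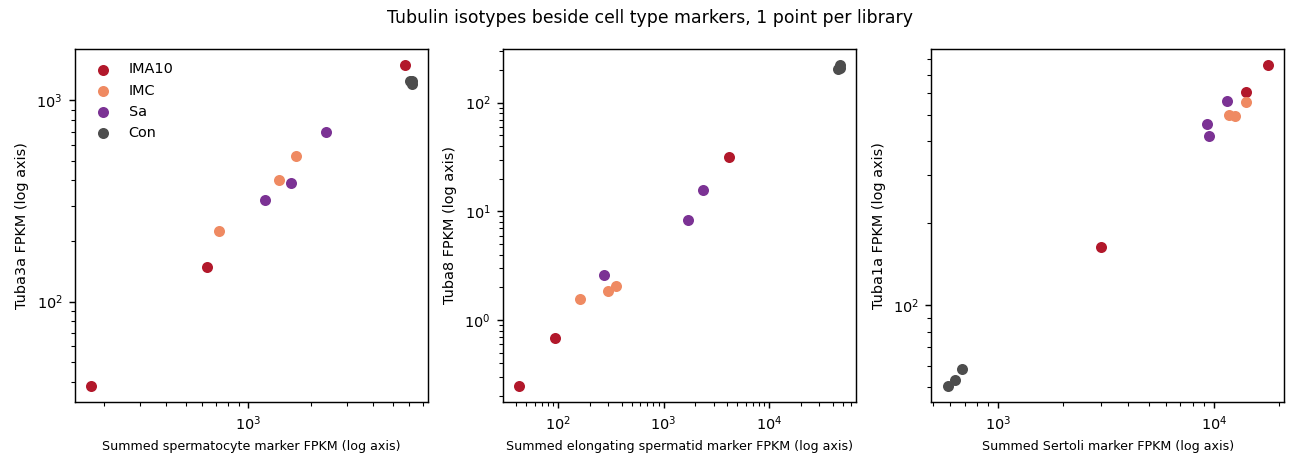
FPKM of Tuba3a, Tuba8 and Tuba1a (y axes, log) against the summed FPKM of spermatocyte, elongating spermatid and Sertoli markers (x axes, log), 1 point per library. Con libraries lie together in each panel, and IMA10 replicate 3 lies near Con in the spermatocyte panel, at 5735 FPKM of markers, but between the groups in the other panels.

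Among the busulfan groups no tubulin passed, and neither did any other gene of the 15472 tested (0% higher and 0% lower in each of the 3 comparisons). At an unadjusted limma p under 0.05 there were 328 genes in IMA10 against IMC, 928 in IMA10 against Sa and 134 in IMC against Sa. The smallest adjusted limma p of a tubulin was 0.916, for Tubb2a in IMA10 against Sa, at a log2 difference of -0.36 ± 0.19 with all IMA10 values below those of Sa. Tuba8 was lower in every IMC library than in any Sa library, at 1.84 ± 0.252 against 8.9 ± 6.58 FPKM (log2 difference -1.55 ± 1.04, limma adjusted p = 1). Libraries of all genes lay apart, above and below, in 0.633% and 7.17% in IMA10 against Sa, 3.32% and 6.02% in IMC against Sa, and 0.478% and 2.88% in IMA10 against IMC, where no tubulin lay apart. With SEs of 0.19 to 1.71, differences of the size seen between these groups were not detectable.

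For IMA10 against Sa that absence rests on IMA10 replicate 3. Without it, IMA10 differed from Sa in 8 of the 10 genes, 3 higher and 5 lower, while 7.38% of 15412 genes were higher and 24.7% lower. Tuba1a was then higher by 0.51 ± 0.15, Tuba1b by 0.38 ± 0.11 and Tubb3 by 0.50 ± 0.16 (log2 ± SE, limma adjusted p = 0.0281, 0.0273 and 0.0405), whereas with it they were at -0.17 ± 0.46, -0.26 ± 0.42 and -0.15 ± 0.44. Tuba3a was lower by log2 differences of -2.53 ± 0.54, Tuba3b of -2.22 ± 0.55, Tuba8 of -2.51 ± 0.49, Tubb4b of -1.33 ± 0.26 and Tubb6 of -0.49 ± 0.15 (limma adjusted p = 0.0136, 0.0175, 0.0136, 0.0136 and 0.0333). This fit leaves 2 IMA10 libraries. In the same setting 0 tubulins passed in IMA10 against IMC, where 0% of genes were higher and 0.0130% lower, and 0 in IMC against Sa. Mean FPKM of Tuba3a was higher in IMA10 than in Sa, 560 against 468, although its log2 difference over all libraries was negative, because 1 library held the high value.

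Tubb5 was the isotype with the widest range within the IMC, Sa and Con groups. It had 166, 103 and 21.8 FPKM in IMA10, 2.96, 86.0 and 55.6 FPKM in IMC, and 0.18, 30.3 and 95.5 FPKM in Sa, against 0.05, 8.04 and 0.19 FPKM in Con. In Con it was nearly absent from replicates 1 and 3 and clearly present in replicate 2. In Sa it was nearly absent from replicate 1, and in IMC it was low in replicate 1. Tubb3, by contrast, had 13.6 to 15.8 FPKM in Con and Tubb4b 1169 to 1198 FPKM.

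On the log2(FPKM + 1) scale the range of Tubb5 over the 3 libraries was 2.87 in IMA10, 4.46 in IMC, 6.35 in Sa and 3.11 in Con. In Con only 26 of 15472 genes had a wider range, and the median gene had 0.18. Tubb5 was singled out for its unequal Con values, so this rank is a description and not a test. In Sa no gene had a wider range and in IMC 6 had, with medians of 0.38 and 0.37. In IMA10, where the median gene ranged over 1.24, 1715 genes had a wider range. Of the other 9 tubulins, the widest range in Con was 0.23, for Tubb6. Between the other Con libraries, without replicate 2, Tubb5 ranged over 0.18.

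Tubb5 had the largest SEs of the 10 genes. Tubb5 was higher than in Con by 5.03 ± 1.71 in IMA10 (log2 ± SE, limma adjusted p = 0.0234), and stood at 3.58 ± 1.71 in IMC and 2.77 ± 1.71 in Sa, which did not pass (limma adjusted p = 0.0775 and 0.161). The IMA10 call was lost without any 1 of IMA10 replicates 1 or 2 or Con replicates 1 or 3, at an adjusted limma p of 0.0689 to 0.0749, and without IMA10 replicate 3 the difference was 5.87 ± 1.86 (limma adjusted p = 0.013). The IMC difference passed without IMC replicate 1 (4.97 ± 1.73, limma adjusted p = 0.0298) or Sa replicate 1 (limma adjusted p = 0.0352), and with only IMC and Con fitted (0.0371). The Sa difference passed without Sa replicate 1 (4.61 ± 1.48, limma adjusted p = 0.0209).

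Tubb5 was not alone on its chromosome. In the gene order of the RefSeq table, several near neighbours on chromosome 17 were high and low in the same libraries of IMC, Sa and Con, which was noticed after the values were seen. Mdc1, a DNA damage protein and the next tested gene, had 0.61, 10.2 and 4.48 FPKM in IMC, 1.21, 3.64 and 10.9 FPKM in Sa, and 0.84, 16.2 and 1.12 FPKM in Con. Gnl1, 11 tested genes away, had 2.47, 24.1 and 12.3 FPKM in IMC, 3.1, 15.0 and 18.9 FPKM in Sa, and 2.8, 35.3 and 3.48 FPKM in Con. Abcf1, 9 genes away, had 1.53, 28.0 and 15.7 FPKM in IMC, 1.16, 15.6 and 26.8 FPKM in Sa, and 1.8, 21.3 and 1.61 FPKM in Con. These genes, like Tubb5, were lowest in replicate 1 of IMC and Sa and highest in IMC replicate 2, Sa replicate 3 and Con replicate 2. In IMA10, where Tubb5 was highest in replicate 1 and lowest in replicate 3, Mdc1 and Gnl1 did not go with it. Mdc1 had 4.1, 5.45 and 16.4 FPKM and Gnl1 23.0, 24.3 and 46.1 FPKM in IMA10, highest in replicate 3. Abcf1, at 41.7, 41.1 and 34.8 FPKM, kept the order of Tubb5 over a log2 range of 0.25, against 2.87 for Tubb5. Ier3, 2 genes away on the other side of Tubb5, had 14.4, 12.3 and 1.47 FPKM in IMA10, the same order again.

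Some genes lying between them, such as Dhx16 at 1.22, 7.97 and 5.67 FPKM in IMC, 1.32, 5.79 and 8.98 FPKM in Sa, and 0.73, 15.1 and 0.72 FPKM in Con, shared the pattern, and others did not. Atat1, the tubulin acetyltransferase, 6 genes from Tubb5, had 10.4, 9.32 and 9.41 FPKM in IMC, 13.6, 10.2 and 11.8 FPKM in Sa, and 14.8, 18.7 and 15.7 FPKM in Con. Mrps18b, a mitochondrial ribosome gene 7 places away, had 39.5, 48.5 and 44.6 FPKM in IMC, 51.2, 39.3 and 45.9 FPKM in Sa, and 52.9, 50.2 and 48.3 FPKM in Con. Genes with and without the pattern thus lie among each other in gene order.

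Counted over 81 tested genes, 40 on each side and Tubb5 itself, 6 had a range of at least 2 on the log2 scale in Con (7.41%), all highest in replicate 2. Tubb5 is among them, as in the counts of the other groups below, although its unequal Con values were the reason to look here. Elsewhere on chromosome 17 the share was 0.794% (5 of 630), and over all genes it was 0.407% (63 of 15472), of which 30 were highest in replicate 2. In Sa 14 of the 81 genes reached that range (17.3%, against 1.43% elsewhere on the chromosome and 0.963% over all genes), and 13 of them were highest in replicate 3. In IMC 12 did (14.8%, against 0.952% and 0.601%), and 11 were highest in replicate 2 and 11 lowest in replicate 1. In IMA10 the share was 33.3%, against 24.4% elsewhere on the chromosome and 24.7% over all genes. The cause was not tested, and the window was chosen after the values were seen.

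**Figure D5:**
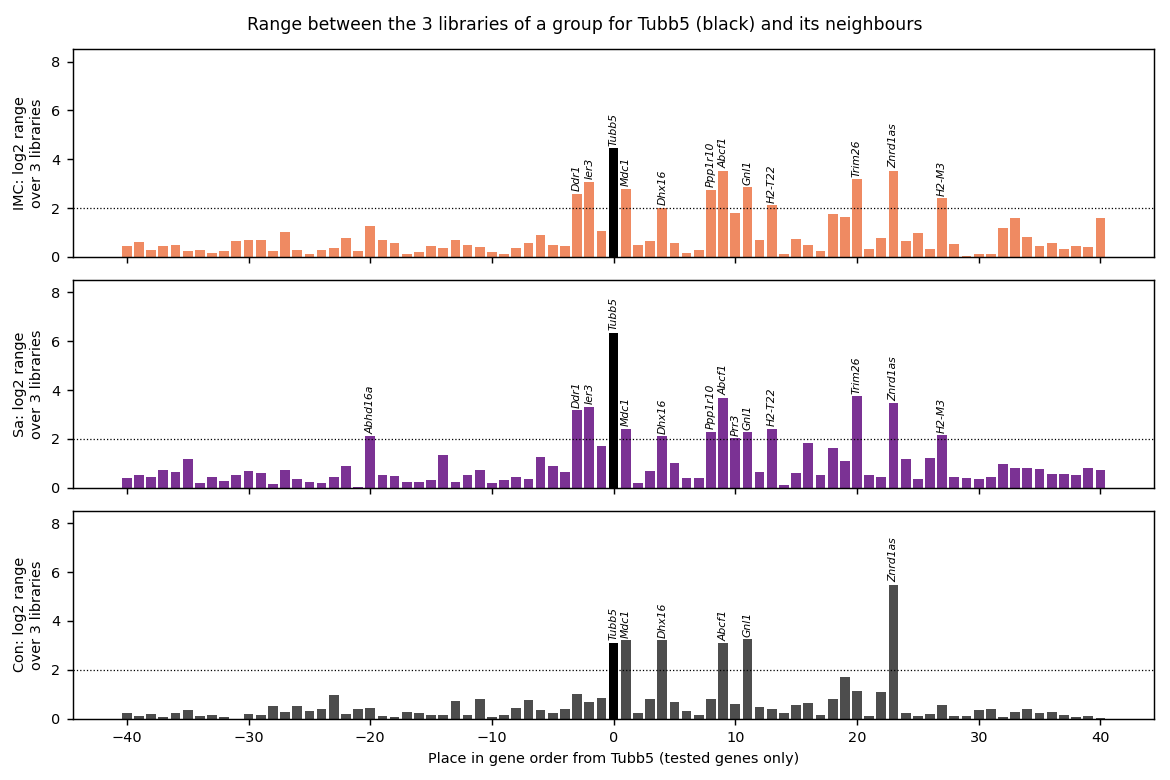
Range of log2(FPKM + 1) over the 3 libraries of IMC, Sa and Con (y axes) for Tubb5 (black) and the 40 tested genes on each side (x axis, place in gene order). The dotted line marks a range of 2 and the genes reaching it are named. They lie between 20 places before and 27 places after Tubb5, and in Con all 6, Tubb5 included, are highest in replicate 2.

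Which genes had the profile most like each tubulin was described by the mean absolute difference of log2 profiles, each centred on its own mean over the 12 libraries, among 13597 genes with an established symbol. Tuba1a was closest to Mtch1 (0.0538) and Kcnh2 (0.0571), Tuba1b to G6pdx (0.0439) and Cdc42bpb (0.048), and Tubb3 to Derl3 (0.0655) and Crtc3 (0.0718). Among the tubulins, Tubb3 was closest to Tuba1b at 0.0617. Tuba3a was closest to Kctd19 (0.109) and Rpl39l (0.124), Tuba3b to Fam178b (0.0732) and Morn5 (0.0818), and Tubb4b to Kat8 (0.0721) and Zfp217 (0.0756). Kctd19 had 6.41, 28.4 and 293 FPKM in IMA10, against 234 to 248 FPKM in Con, the same order as Tuba3a.

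Tuba8 was closest to Prss37 (0.142), a gene of spermatids, and Slfnl1 (0.144), Tubb6 to Ntan1 (0.0783) and Rai2 (0.112), and Tubb2a to Vash1 (0.105) and Zswim6 (0.121). Vash1 encodes a vasohibin, an enzyme that removes the last tyrosine of alpha tubulin. It had only 0.8 to 2.11 FPKM over the 12 libraries, near the filter of 1 FPKM, where log2(FPKM + 1) profiles vary little. Tubb5 had no near match: its closest genes were Ddr1 (0.883) and Ier3 (1.09), both within 3 tested genes of it on chromosome 17, and its closest tubulin was Tuba1a at 1.75.

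Tuba3a, Tuba3b and Tubb4b, the leading isotypes of untreated testis, are shown with the 300 bases around their starts, 250 before and 50 after, from RefSeq (build GRCm38.p6). Capitals mark CCAAT, the box bound by nuclear factor Y. The windows are chr6:125286032-125286331 on the minus strand for Tuba3a, chr6:145615713-145616012 on the plus strand for Tuba3b and chr2:25224653-25224952 on the minus strand for Tubb4b, each written 5′ to 3′ along the gene.
Tuba3a: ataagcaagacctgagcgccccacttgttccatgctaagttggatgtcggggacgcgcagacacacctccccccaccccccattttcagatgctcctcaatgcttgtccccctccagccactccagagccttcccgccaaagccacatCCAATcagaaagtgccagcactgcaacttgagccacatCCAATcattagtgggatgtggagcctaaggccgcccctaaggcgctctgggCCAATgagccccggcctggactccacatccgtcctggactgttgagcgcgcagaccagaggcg
Tuba3b: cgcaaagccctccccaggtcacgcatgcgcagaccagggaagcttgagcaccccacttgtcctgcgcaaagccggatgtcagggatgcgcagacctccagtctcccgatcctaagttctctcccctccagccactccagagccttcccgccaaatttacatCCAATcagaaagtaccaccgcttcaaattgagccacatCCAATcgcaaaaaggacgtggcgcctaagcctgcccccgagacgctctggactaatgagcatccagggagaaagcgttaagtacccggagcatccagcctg
Tubb4b: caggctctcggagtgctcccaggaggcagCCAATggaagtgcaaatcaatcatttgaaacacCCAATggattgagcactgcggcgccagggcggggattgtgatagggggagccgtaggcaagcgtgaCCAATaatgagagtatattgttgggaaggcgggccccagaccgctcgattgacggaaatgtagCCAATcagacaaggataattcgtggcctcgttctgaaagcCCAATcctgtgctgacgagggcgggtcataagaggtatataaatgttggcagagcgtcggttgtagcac
Matches to CCAAT were counted on both strands, and overlapping matches count each. There were 3 in Tuba3a, 2 in Tuba3b and 5 in Tubb4b. Of 32851 promoter windows of this length, 11.7% held at least 2, 3.37% at least 3 and 0.271% at least 5. Tubb5 held 2, Tuba1a and Tubb3 held 1 each, and Tuba1b, Tuba8 and Tubb2a held 0. The entry of Tubb6 is not used here. A match is a description of these letters and nothing more.

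Other genes of the tubulin pathway were counted from lists chosen with earlier results of these data known. Of 28 tubulin tail enzymes tested, 3 rose and 22 fell in IMA10, 3 rose and 22 fell in IMC, and 3 rose and 18 fell in Sa against Con, with medians of -2.10, -1.98 and -1.69. Over all genes tested, 47.7% rose and 23.9% fell in IMA10, 50.8% and 23.3% in IMC, and 52.0% and 19.2% in Sa. The falls numbered 23 in each when IMA10 replicate 3 was left out, where 35.0%, 32.2% and 30.0% of all genes fell. Hdac6, which removes acetyl groups from alpha tubulin, rose to 151 ± 7.41 FPKM in Sa, against 13.7 ± 0.915 in Con (log2 3.37 ± 0.47, limma adjusted p = 0.000358). Ttll10, a glycine ligase of tubulin tails, fell to 18.8 ± 7.85 FPKM in Sa, against 248 ± 4.7 in Con (-3.73 ± 0.92, limma adjusted p = 0.00442). Ttll2, of the same family, fell by 3.14 ± 0.41 on the log2 scale, to 0.627 ± 0.415 FPKM in Sa, against 13 ± 0.455 in Con (limma adjusted p = 0.000351).

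Of 16 manchette genes tested, 1 rose and 14 fell in IMA10, 1 rose and 13 fell in IMC, and 1 rose and 8 fell in Sa, with medians of -2.77, -2.27 and -2.03, while 23.9%, 23.3% and 19.2% of all genes fell. With IMA10 replicate 3 left out the falls numbered 15 in each (all genes 35.0%, 32.2% and 30.0%), so the Sa count depends on that library. Spem1, needed for shaping the sperm head, had 20 ± 15.8 FPKM in Sa and 759 ± 60.8 in Con. Kif17, a kinesin motor, had 11.5 ± 4.54 and 123 ± 1.57 FPKM in Sa and Con, and Hook1, a microtubule linker of the manchette, 11.6 ± 4.52 and 118 ± 15.5 FPKM. Their log2 changes were -5.65 ± 1.20, -3.37 ± 0.86 and -3.31 ± 0.70 (limma adjusted p = 0.00192, 0.0053 and 0.00188).

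Of 29 microtubule-binding proteins tested, 13 rose and 6 fell in IMA10, 15 and 6 in IMC, and 17 and 5 in Sa. Over all genes 47.7%, 50.8% and 52.0% rose and 23.9%, 23.3% and 19.2% fell, so this list was near the background in both directions. Its medians were 0.45, 0.60 and 0.73, against 0.41, 0.52 and 0.60 over all genes. Clip3 rose to 34.3 ± 1.52 FPKM in Sa, against 2.72 ± 0.329 in Con, and Map1b, a microtubule stabiliser, to 19.7 ± 2.19 against 2.02 ± 0.181. Tppp2, of the family that promotes tubulin polymerization, fell to 0.203 ± 0.352 FPKM in Sa, against 7.86 ± 1.49 in Con.

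Of 22 tubulin folding factors 6 rose and 5 fell in IMA10, 6 and 6 in IMC and 6 and 2 in Sa. All genes fell in 23.9%, 23.3% and 19.2% and rose in 47.7%, 50.8% and 52.0%, so the falls of this list were near or below the background and the rises below it. The prefoldin subunits Pfdn6 and Vbp1 rose by 2.67 ± 0.32 and 1.68 ± 0.30 in Sa, and Tbcd, the tubulin cofactor D, by 1.82 ± 0.26 (log2 ± SE, limma adjusted p = 0.00032, 0.000692 and 0.000361). The Sa counts were 9 and 8 without IMA10 replicate 3, where 55.7% of all genes rose and 30.0% fell. Of 7 severing proteins 1 rose and 3 fell in IMA10 and in IMC, and 1 rose and 2 fell in Sa, against the same shares of all genes. Katnal1, of the katanin family, was at -1.53 ± 0.57 in Sa and Katnbl1, a katanin-like protein, at 1.92 ± 0.37 (log2 ± SE, limma adjusted p = 0.0346 and 0.00113). Leaving out IMA10 replicate 3, the falls of this list were 5 in IMA10 and IMC and 4 in Sa, where 35.0%, 32.2% and 30.0% of all genes fell. Gamma, delta and epsilon tubulins (Tubg1, Tubd1 and Tube1) passed in none of the comparisons with Con. With IMA10 replicate 3 left out, 1 of these 3 rose and 1 fell in IMC and in Sa, and 1 fell in IMA10. Over all genes 51.6% then rose and 35.0% fell in IMA10, 53.7% and 32.2% in IMC, and 55.7% and 30.0% in Sa.

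Tuba4a, an alpha tubulin that lacks the encoded terminal tyrosine, also fell, with log2 differences of -3.38 ± 0.27 in IMA10, -3.63 ± 0.27 in IMC and -3.11 ± 0.27 in Sa (limma adjusted p = 5.19e-05, 3.01e-05 and 8.87e-05). It had 6.57, 6.16 and 13.6 FPKM in IMA10, 5.86, 7.93 and 6.64 FPKM in IMC, and 12.2, 10.9 and 7.86 FPKM in Sa, against 97.9, 89.9 and 98.0 FPKM in Con. Unlike Tuba3a, it stayed below Con in IMA10 replicate 3.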

How the data were processed

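RNA sequencing of testis was analysed from 1 deposited table with 22221 rows and 12 libraries. The authors deposited FPKM values, per the file headers. The aligner, counting program, strand setting, genome build and annotation are not stated in the labels or the file. Dividing by the mapped total means that a fall in abundant transcripts raises the rest. Of 20288 rows with an NCBI gene ID, 20141 received a symbol from a RefSeq table (GRCm38.p6), used for names and gene order. Depth is unknown, and no counting interval is given.

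Groups were taken from the sample labels. Values were tested as log2(FPKM + 1) with limma 3.58.1 in R 4.3.3, with 1 mean per group over 12 libraries, a variance trend and Benjamini-Hochberg adjustment over 15472 genes. These had at least 1 FPKM in at least 3 libraries, and an adjusted p under 0.05 counts as passing. Shares of summed alpha or beta tubulin FPKM were compared by exact two-sided permutation in Python 3.11.15 with SciPy 1.17.1. Coding ends and shared 50-base stretches came from GENCODE release M21 transcripts. How well the adjusted p-values hold where the spread differs between groups was not tested. On the log2(FPKM + 1) scale the median gene ranged over 1.24 in IMA10 and 0.18 in Con.

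The members, lists and comparisons were chosen with earlier results of these data known. Named genes are all 10 tubulins, the other tubulin rows, up to 3 genes per list with the largest change that passed in Sa against Con (5 FPKM or more in 1 of these groups), and the 2 genes closest to each tubulin in profile. Some items that this rule names, and some sequences, are not reported here. Neighbours of Tubb5 were chosen after their values were seen. Alternatives were other scalings, pseudocounts, filters, fits of the 2 groups compared, a replicate block and leaving out each library.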

Additional observations from a re-analysis of the deposited data

How the results depend on the processing

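Among the 10 tubulins, the counts of rises against Con stayed within 1.5 times under all alternatives. The counts of falls did not. In Sa minus Con they were 5 with median-of-ratios scaling and 5 when only the 2 groups were fitted, and 1 to 5 when single libraries were left out, against 2. In IMC minus Con they were 6 and 5 in those settings and 2 to 6 without single libraries, against 3. In IMA10 minus Con they were 3 with quantile normalization, 2 when only the 2 groups were fitted and 2 to 6 without single libraries, against 6. In IMA10 minus Sa, leaving out single libraries gave 0 to 3 rises and 0 to 5 falls. The cause was not tested, apart from the smaller error without IMA10 replicate 3.

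Same-numbered libraries of different groups were compared after centring each gene on its group mean. Of 18 such pairs, 5 correlated above 0.1 (-0.77 to 0.55), and 5 pairs were the best match of their library. Replicates 1 to 3 of IMC and Sa correlated at 0.31, -0.09 and 0.55. Values centred over 3 libraries are not independent of each other, so this check cannot exclude a pairing or a batch shared by number. With the replicate number as a block, 3 tubulins fell in IMA10 minus Con, against 6, while 2972 of 15472 genes fell, against 3694.

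Over all genes, falls against Con numbered 5912 in IMA10, 6474 in IMC and 6246 in Sa with median-of-ratios scaling, against 3694, 3603 and 2963, and the 2-group fits gave 1834, 5046 and 4765. In IMA10 the falls numbered 4388 with quantile normalization. Without single libraries they were 2178 to 5401 in IMA10, 2247 to 4964 in IMC and 1954 to 4623 in Sa, of 15199 to 15432 genes tested. IMA10 minus Sa had 1 rise and 1 fall with no filter and 1 rise with a pseudocount of 0.1, against 0, and 1138 rises and 3801 falls without IMA10 replicate 3.

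With only the listed genes in the sum, the Tuba3 share in Con was 87.3%, against 81.6%. Without Tubb5 in the beta sum, the mean Tubb4b share was 65.9% in IMA10, 71.2% in IMC, 77.7% in Sa and 96.8% in Con. With Tubb5 it was 56.6%, 65.6%, 72.8% and 96.6%. The Con range of Tubb5 was 5.76 with a pseudocount of 0.1 and 0.18 to 3.11 without single Con libraries.

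Direction changed only among busulfan groups, where no value passed with all libraries. In IMA10 minus Sa, median-of-ratios scaling put Tuba1a at 0.07 and Tubb3 at 0.09, and quantile normalization put Tubb6 at 0.06. In IMA10 minus IMC, median-of-ratios scaling put Tubb4b at 0.06 and quantile normalization put Tubb2a at 0.12. Without single libraries the log2 differences ranged as follows. In IMA10 minus Sa they were Tuba1a -0.60 to 0.51, Tuba1b -0.63 to 0.38, Tuba3a -2.53 to 0.10, Tuba3b -2.22 to 0.39, Tubb3 -0.56 to 0.50 and Tubb4b -1.33 to 0.09. In IMA10 minus IMC they were Tuba1a -0.72 to 0.39, Tuba1b -0.70 to 0.31, Tuba3a -2.24 to 0.38, Tuba3b -1.83 to 0.77, Tuba8 -0.97 to 1.39, Tubb2a -0.30 to 0.02, Tubb3 -0.72 to 0.34, Tubb4b -0.94 to 0.47 and Tubb6 -0.17 to 0.23. In IMC minus Sa they were Tuba3a -0.56 to 0.06, Tuba3b -0.75 to 0.02 and Tubb5 -1.03 to 2.20.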

Other observations

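The summed alpha tubulin FPKM divided by the summed beta tubulin FPKM was 2.66 ± 0.21 in IMA10, 2.83 ± 0.27 in IMC and 2.5 ± 0.069 in Sa, against 2.13 ± 0.053 in Con (SD, n = 3). The alpha sum can depend on how fragments shared among tubulin genes were counted. The beta sum includes Tubb5, which had 0.18 to 95.54 FPKM within Sa.

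Tuba3b and Tuba3a did not keep 1 ratio. Tuba3b FPKM divided by Tuba3a FPKM was 0.67, 0.65 and 0.66 in IMA10, 0.48, 0.57 and 0.46 in IMC, and 0.48, 0.57 and 0.55 in Sa, against 0.72, 0.77 and 0.66 in Con. All IMC and Sa values were below those of IMA10, and the 9 busulfan libraries differed from Con at an exact permutation p of 0.0273 (0.0364 adjusted over 3 measures). Because these genes share 50-base stretches, the ratio can depend on how the authors counted such fragments.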
